A study of Mus musculus with 12 samples.

Results

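miR-132 and miR-212 are a pair of microRNAs made from neighbouring hairpins on mouse chromosome 11. Of the 616 mature microRNAs listed for embryonic gonads, 3 were taken by name as members of the pair: miR-132-3p, miR-212-5p and miR-212-3p. The fourth arm, miR-132-5p, is also listed and is given beside them. The pair was chosen by its names and with the levels of its arms in all 12 libraries in view, both as deposited and per library total, so those levels are described here without a test of any member.

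The study measured small RNA in primordial germ cells (PGCs), the precursors of eggs and sperm, and in gonadal somatic cells (SC), which become the supporting and hormone-producing cells of ovary and testis. Female and male CD1 mouse embryos were taken at E11.5, E12.5 or E13.5 (E, embryonic day), and every combination of cell type, sex and stage has 1 library, 12 in all. The 12 groups are therefore PGC female, PGC male, SC female and SC male on each of those 3 days, all of the CD1 strain, with no transgene or treatment named. Each fraction came from pools of about 80 gonads, freed of mesonephros and split with anti-CD15 magnetic beads, and the labels' protocols give an enrichment of 93 to 96% for PGCs and a purity over 90% for SC.

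A microRNA hairpin is cut into a 5p and a 3p arm, and the arm that is loaded into an Argonaute protein silences messenger RNAs that pair with its seed, bases 2 to 8. The miR-132 and miR-212 hairpins are transcribed together, and the transcription factor CREB, which acts downstream of cyclic AMP, is known to drive them in neurons. In the adult ovary, luteinizing hormone, which signals through cyclic AMP, is known to raise both in granulosa cells, the somatic cells around the egg.

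The mature sequences show which members can share targets. They are given 5′ to 3′ from RefSeq (GRCm38.p6) with the seed in capitals, and all lie on the plus strand.
miR-132-3p: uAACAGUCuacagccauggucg
miR-212-3p: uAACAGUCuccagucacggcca
miR-212-5p: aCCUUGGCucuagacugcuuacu
miR-132-5p: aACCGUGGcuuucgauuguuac
The 2 3p arms have the same seed, and no other RefSeq mouse mature microRNA has it. Counted from 1 at the 5′ end, they are identical over the first 9 bases and at 17 of 22 positions. The differences, with the base of miR-132-3p first, are A10C, C14U, U17C, U20C and G22A. The 5p arms are identical at 9 of 22 positions, differ in seed, and share it with no other RefSeq mouse microRNA. How many mismatches the alignment allowed is not given in the sources used here, so some reads of the 3p arms could be counted for the wrong one.

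The hairpins are shown because both arms of each were counted, and here the capitals mark the mature arms.
Mir212: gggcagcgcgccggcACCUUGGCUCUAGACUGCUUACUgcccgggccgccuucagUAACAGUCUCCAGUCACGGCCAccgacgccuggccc
Mir132: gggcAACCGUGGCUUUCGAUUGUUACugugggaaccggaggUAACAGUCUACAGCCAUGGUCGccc
In GRCm38.p6, Mir212 spans 91 bases at chr11:75173388-75173478 and Mir132 spans 66 bases at chr11:75173682-75173747, with 203 bases between them. The arms lie at chr11:75173403-75173425 (miR-212-5p), chr11:75173443-75173464 (miR-212-3p), chr11:75173686-75173707 (miR-132-5p) and chr11:75173723-75173744 (miR-132-3p). In the GENCODE vM39 annotation of the later build GRCm39, both hairpins fall within the long noncoding RNA gene 1700016P03Rik. Of its 9 transcripts, Mir132 is exonic in 1, partly exonic in 3 and intronic in 3, and Mir212 is exonic in 1, partly exonic in 2 and intronic in 3. The nearest protein-coding genes are Ovca2, 2195 bases away, and Hic1, 3132 bases away.

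Values are whole reads per mature microRNA and reads scaled to 1000000 listed microRNA reads per library (RPM). The libraries held 166804 to 1221211 such reads in PGCs and 611229 to 1768825 in SC. The files list no value of 1 to 4 reads, so a 0 means under 5 reads, a limit that equals 4.09 to 29.98 RPM in PGCs and 2.83 to 8.18 RPM in SC. The deposited values, counts divided by a size factor, differed 20.4-fold between libraries in their sum, against 10.6-fold for the reads. PGC levels are lower against SC on that scale, and it is given where it changes a statement. Ranges in parentheses are exact 95% intervals for counting error only, because reads copied by PCR are not independent molecules and no combination was repeated. A bound against a library at 0 ("at least") takes the reads of the other library as counted and leaves out counting error.

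Apart from PGC female E11.5, the fractions carried the microRNAs known for their cell types. The summed level of 8 germ cell microRNAs (the miR-290 cluster) was 66992 to 136605 RPM in 5 PGC libraries and 221 to 5787 RPM in SC, where miR-290a-5p and miR-291a-5p were at 0 in both E11.5 libraries. PGC female E11.5 stood apart. Its 2141 RPM of the germ cell list lay below both E13.5 SC libraries (3305 RPM in females, 5787 RPM in males). It held 84094 RPM of 7 gonadal somatic microRNAs (miR-202, miR-199a, miR-214, miR-143 and miR-145a arms). Of that somatic list, PGC male E11.5 held 58051 RPM, beside 66992 RPM of the germ cell list. The E12.5 and E13.5 PGC libraries held 9206 to 29587 RPM of it, and the SC libraries 87869 to 114434 RPM. Within the 6 stage-by-sex pairs, the somatic list was 1.36-fold and 1.53-fold higher in SC at E11.5 (female, male). The same ratio was 4.68-fold and 9.03-fold at E12.5 and 3.81-fold and 9.55-fold at E13.5. In bulk fractions, fewer cells of a type and less RNA per cell cannot be told apart.

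All 4 arms were of low to middling abundance. Over the 12 libraries miR-132-3p gave 1345 reads and ranked 283 of 616 by its mean of 110 RPM, where the median microRNA had 82.2 RPM. miR-212-5p gave 381 reads (mean 23.9 RPM, rank 403) and miR-212-3p 147 reads (8.16 RPM, rank 487). miR-132-5p gave 33 reads (1.80 RPM, rank 558). These are reads of RNAs of 22 or 23 bases, and whether the arms were captured equally well was not tested. Together the 4 arms took 0.00894% of microRNA reads in PGCs and 0.0198% in SC. Of the 3 members, 2 had a mean of at least 10 RPM, the filter for counts over all microRNAs (473 of 616); miR-212-3p did not.

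miR-132-3p, the most abundant arm, was detected in every library. In PGCs (female, male) it stood at 61.4 and 73.9 RPM at E11.5, 126 and 119 RPM at E12.5, and 53.5 and 56.1 RPM at E13.5. In SC it stood at 69.5 and 78.5 RPM at E11.5, 149 and 182 RPM at E12.5, and 216 and 136 RPM at E13.5. The PGC mean was 81.7 ± 32.6 RPM and the SC mean 138 ± 57.1 RPM (SD, n = 6 libraries each), and the ranges overlapped. The E11.5 libraries of both cell types and the E13.5 PGC libraries were low, the E12.5 PGC libraries were intermediate, and the later SC libraries were high.

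Put in order, SC female E13.5 was highest at 216 RPM (194 to 239), followed by SC male E12.5 at 182 RPM (160 to 206). SC female E12.5, SC male E13.5 and the E12.5 PGC libraries came next, and the E11.5 libraries of both cell types and the E13.5 PGC libraries last. The counting intervals of every 2 neighbours in this order overlapped. PGC female E12.5 rested on 21 reads (77.9 to 192 RPM) and PGC male E12.5 on 22 reads (74.9 to 181 RPM), against 222 and 251 reads in the E12.5 SC libraries. The interval of SC female E13.5 lay above that of every library but SC male E12.5.

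**Figure D1:**
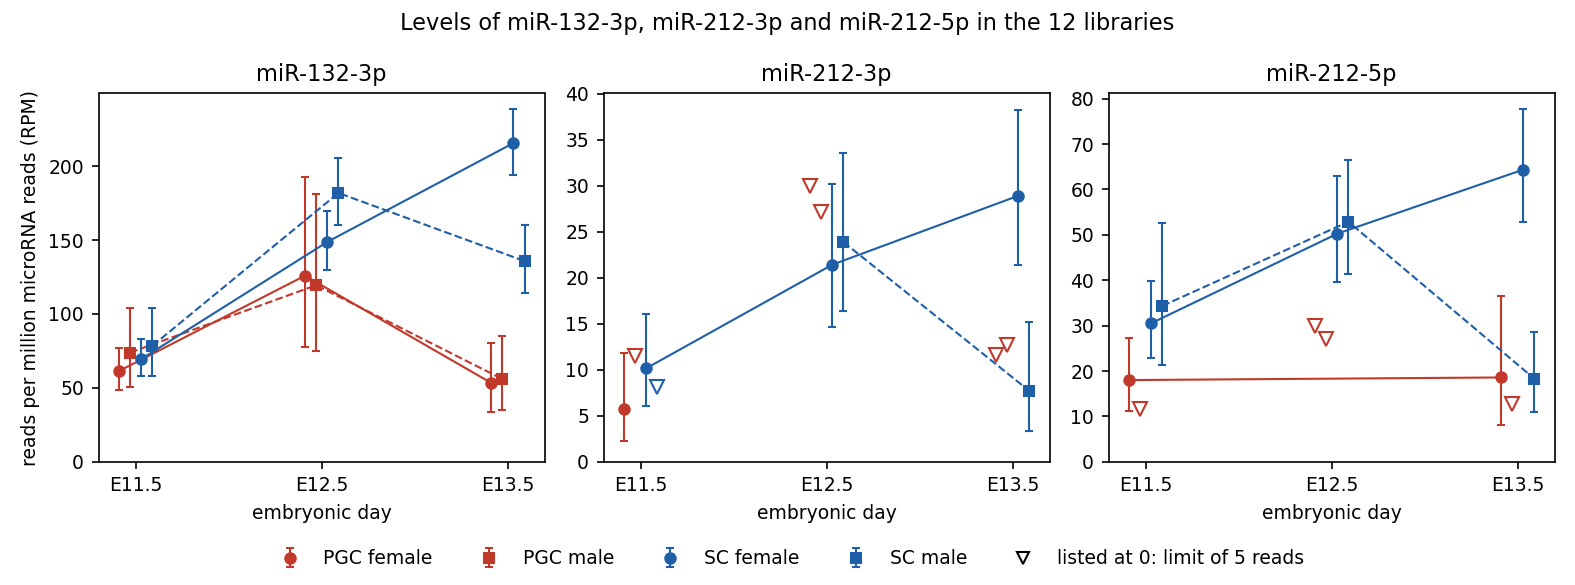
Levels of the 3 members in RPM (vertical axis, a separate scale in each panel) by embryonic day; points are single libraries, bars exact 95% counting intervals, and open triangles mark the 5-read limit of a library where the microRNA is listed at 0. miR-132-3p in SC female reaches 216 RPM at E13.5 while both PGC libraries of that day are under 60 RPM, and most PGC points of the miR-212 arms are limits, not values.

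Within pairs, miR-132-3p was higher in SC in 6 of 6, but the size differed by stage. The SC level was 1.13-fold that of PGCs in female E11.5 (0.843 to 1.53) and 1.06-fold in male E11.5 (0.665 to 1.72). At E12.5 it was 1.18-fold in females (0.754 to 1.95) and 1.52-fold in males (0.983 to 2.47). At E13.5 it was 4.03-fold in females (2.65 to 6.44) and 2.42-fold in males (1.54 to 3.99). The counting interval included 1 in all 4 earlier pairs and excluded it in both E13.5 pairs. In males the E12.5 and E13.5 intervals overlapped.

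On the log2(RPM + 10) scale, miR-132-3p was lower in PGCs by a mean of -0.67 ± 0.69 (SD, n = 6 pairs), and the median of all 473 microRNAs was -0.47. Of the 3 members, miR-212-5p passed the filter through its SC level, with 4 of 6 PGC libraries at 0, so its place among microRNAs lower in PGCs follows in part from the filter. Of the 473, 15.9% were lower in PGCs in 6 of 6 pairs, miR-132-3p and miR-212-5p among them. At least 2-fold higher in SC in both E13.5 pairs were 23.7%, again with miR-132-3p and miR-212-5p. For miR-212-5p that takes the 0 of PGC male E13.5 as a value, and against 5 reads the ratio there was at least 1.44-fold. In female E13.5 the difference of miR-132-3p was -1.83 against a median of -0.25, with 9.30% of microRNAs below it. In male E13.5 it was -1.14 against -0.16, with 33.0% below it. In the E11.5 and E12.5 pairs between 31.9 and 55.8% of microRNAs lay below it.

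The scale set much of the size of this difference. On the deposited scale the SC level of miR-132-3p was 2.72-fold and 1.998-fold that of PGCs at E11.5 (female, male). It was 17.0-fold and 14.3-fold at E12.5 and 15.2-fold and 11.3-fold at E13.5. Its mean log2 difference there was -2.91, where the median of all microRNAs was -2.57, 67.9% of microRNAs were lower in PGCs in 6 of 6 pairs, and 66% were at least 2-fold higher in SC in both E13.5 pairs. PGC female E11.5 at 55.1 and SC male E11.5 at 54.6 were the only libraries that crossed between cell types on that scale. The somatic list, as above, was also higher in SC in every pair and by more at E12.5 and E13.5; its part in the difference of miR-132-3p was not tested.

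**Figure D2:**
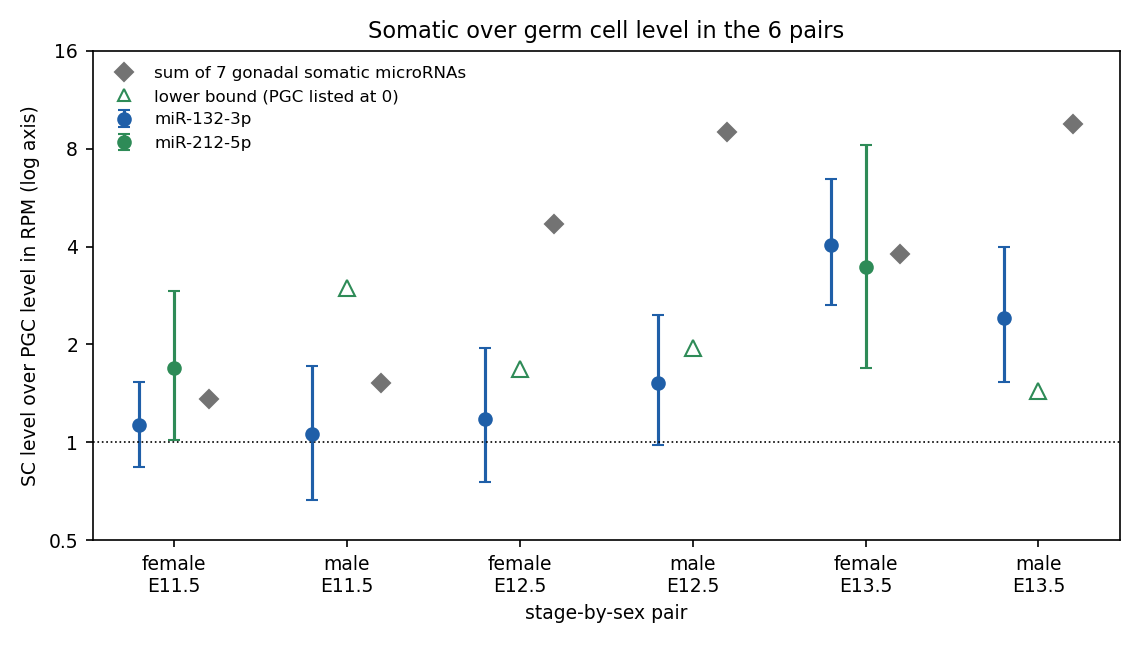
SC level over PGC level in RPM (log axis) in each stage-by-sex pair for miR-132-3p and miR-212-5p, with exact 95% counting intervals; open triangles are lower bounds where the PGC library is listed at 0, and diamonds show the sum of 7 gonadal somatic microRNAs. miR-132-3p lies between 1.06 and 1.52 at E11.5 and E12.5 and reaches 4.03 and 2.42 at E13.5. Every bound of miR-212-5p lies above 1, with counting error left out.

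miR-212-5p, the more abundant arm of its hairpin, was listed in 2 PGC libraries and in all SC libraries. In PGCs it stood at 18.0 RPM in female E11.5 (22 reads) and 18.6 RPM in female E13.5 (8 reads), and at 0 in the other 4. In SC (female, male) it stood at 30.5 and 34.4 RPM at E11.5, 50.2 and 52.9 RPM at E12.5, and 64.4 and 18.3 RPM at E13.5, a mean of 41.8 ± 17.0 RPM (SD, n = 6). The highest PGC value, 18.6 RPM, lay just above the lowest SC value, 18.3 RPM in male E13.5, so the ranges touched. The 5-read limits of the E12.5 PGC libraries, 29.98 and 27.1 RPM, are as high as some SC values, and both PGC libraries with a value were female.

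The counted SC level of miR-212-5p was above the PGC level, or above its 5-read limit, in each pair. The ratio was 1.69-fold in female E11.5 (1.01 to 2.92) and 3.46-fold in female E13.5 (1.70 to 8.22). Where PGCs were listed at 0, it was at least 2.97-fold higher in SC in male E11.5, at least 1.68-fold in female E12.5, at least 1.95-fold in male E12.5 and at least 1.44-fold in male E13.5, each against 5 reads in that PGC library. In RPM 1.69% of the 473 microRNAs had a PGC range wholly below the SC range, and 0 of the 2 members past the filter did. In deposited values 14.6% did, miR-212-5p among them. With 4 of 6 PGC libraries at 0, its place there follows in part from the filter.

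miR-212-3p, which shares its seed with miR-132-3p, was the scarcest member. It was listed in 1 PGC library, female E11.5, at 5.73 RPM (7 reads). In SC (female, male) it stood at 10.2 and 0 RPM at E11.5, 21.4 and 23.9 RPM at E12.5, and 28.9 and 7.70 RPM at E13.5. The 5 values above 0 in SC all exceeded the single PGC value, but the limits of the other PGC libraries, 11.6 to 29.98 RPM, reach as high as the SC values. A bound above 1 could be had in 1 pair, female E13.5, where the SC level was at least 2.49-fold higher. In female E11.5 the ratio was 1.78-fold (0.708 to 5.03). In the E12.5 pairs and male E13.5 the difference was not detectable at this depth, and in male E11.5 both fractions were at 0.

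miR-132-5p, the minor arm of its hairpin, was near the limit of detection. It was listed in PGC female E11.5 at 4.09 RPM (5 reads), in SC female E11.5 at 4.52 RPM, in SC male E12.5 at 6.52 RPM and in SC female E13.5 at 6.50 RPM. The other 8 libraries were at 0, among them SC female E12.5 with a limit of 3.35 RPM, where the other 3 arms were higher than at E11.5. The PGC library that lists all 4 arms is the deepest of its cell type, with the lowest limit (4.09 RPM), and the one with the highest level of somatic microRNAs; the part of either in these values was not tested.

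Over time, miR-132-3p was higher at E12.5 than at E11.5 in SC of both sexes. The ratio was 2.14-fold in females (1.71 to 2.69) and 2.32-fold in males (1.69 to 3.22). From E12.5 to E13.5 it was 1.45-fold in females (1.22 to 1.72) and 0.747-fold in males (0.603 to 0.921). From E11.5 to E13.5 the level was 3.10-fold in females (2.52 to 3.83) and 1.73-fold in males (1.24 to 2.45), and the interval excluded 1 in both sexes. On the log2(RPM + 10) scale these are 1.504 and 0.72, above 90.3 and 79.9% of the 473 microRNAs, whose medians were -0.12 and -0.30.

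In PGCs, miR-132-3p was highest at E12.5 in RPM. The E12.5 level was 2.05-fold that at E11.5 in females (1.20 to 3.36) and 1.62-fold in males (0.894 to 2.87). The E13.5 level was 0.425-fold that at E12.5 in females (0.225 to 0.807) and 0.470-fold in males (0.248 to 0.889). Against E11.5, the E13.5 level was 0.870-fold in females (0.520 to 1.40) and 0.759-fold in males (0.420 to 1.35), and both intervals included 1.

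The E12.5 maximum in PGCs changed with the scale. In deposited values the E12.5 PGC libraries were the lowest, at 0.241-fold (female) and 0.644-fold (male) of E11.5, and the E13.5 level was 1.56-fold and 1.15-fold that at E12.5. In RPM 16.9% of the 473 microRNAs were highest at E12.5 in PGCs of both sexes, miR-132-3p among them; on the deposited scale 0.423% were, and neither member past the filter was. Both E12.5 PGC libraries have the fewest reads of all 12, and their part in this maximum was not tested.

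Set side by side, the stage changes of miR-132-3p from E11.5 to E13.5 had opposite directions in the cell types, but both PGC intervals included 1. The female PGC change starts from PGC female E11.5, the library that stood apart in its germ cell microRNAs, whose part in it was not tested. In RPM 13.3% of the 473 microRNAs were at least 1.5-fold higher in SC of both sexes, 44.8% were lower in PGCs of both sexes, and 5.5% were lower in PGCs and higher in SC in both sexes; miR-132-3p was in all 3 groups. The deposited values put 13.5, 54.5 and 5.29% of microRNAs in these groups, again with miR-132-3p in each, whose ratios there were 2.11-fold and 4.20-fold in SC. miR-212-5p was in none of these groups. Its male PGC libraries were at 0 on both days, so it could not have entered the 2 groups that ask for lower levels in PGCs of both sexes.

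**Figure D3:**
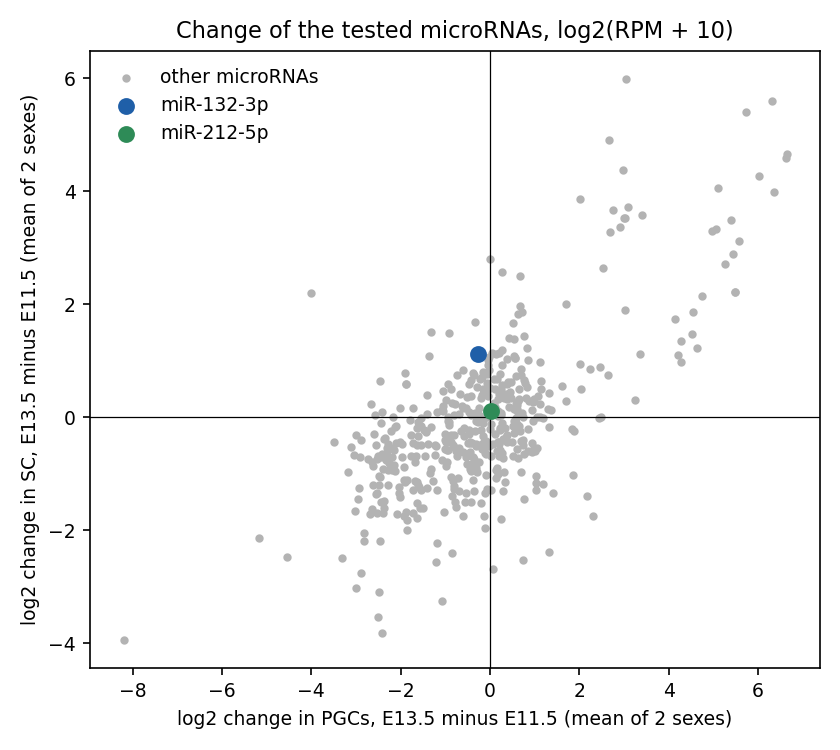
Mean log2 change from E11.5 to E13.5 over both sexes in PGCs (horizontal axis) and SC (vertical axis), on the log2(RPM + 10) scale, for the 473 microRNAs with a mean of at least 10 RPM. miR-132-3p lies at -0.26 and 1.11, in the part of the plot with lower PGC and higher SC levels. miR-212-5p lies near 0 on both axes, with its male PGC libraries at 0 on both days. Its SC value averages opposite changes, 0.88 in females and -0.65 in males.

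The miR-212 arms also differed between stages in SC, with the highest level on a different day in each sex. miR-212-5p in SC females was 1.65-fold higher at E12.5 than at E11.5 (1.14 to 2.38) and 2.11-fold higher at E13.5 than at E11.5 (1.51 to 2.98). In SC males its E12.5 level was 1.54-fold that at E11.5 (0.937 to 2.63), and its E13.5 level was 0.346-fold that at E12.5 (0.197 to 0.579). Against E11.5 the male E13.5 level was 0.532-fold in RPM (0.271 to 1.04) and 1.30-fold in deposited values. In SC females miR-212-3p was 2.84-fold higher at E13.5 than at E11.5 (1.63 to 5.19). In SC males it was at least 2.92-fold higher at E12.5 than at E11.5, and at E13.5 it was 0.322-fold the E12.5 level (0.129 to 0.712). Both arms were thus highest at E13.5 in SC females and at E12.5 in SC males, as miR-132-3p was.

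In PGCs a stage ratio of a miR-212 arm with reads on both days could be had once, for miR-212-5p in females. Its E13.5 level was 1.03-fold that at E11.5 in RPM (0.397 to 2.41) and 0.447-fold in deposited values. All other PGC stage comparisons of these arms have at least 1 library at 0 and were not detectable at this depth.

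Between the sexes, all 3 members were higher in SC females than in SC males at E13.5, and the earlier days differed by member and by scale. The female level of miR-132-3p in SC was 0.885-fold the male level at E11.5 (0.629 to 1.26), 0.818-fold at E12.5 (0.680 to 0.984) and 1.59-fold at E13.5 (1.30 to 1.94). For miR-212-5p the ratios were 0.889 (0.528 to 1.55), 0.9503 (0.679 to 1.33) and 3.52 (2.15 to 6.07). For miR-212-3p the ratio was at least 1.24 at E11.5, 0.897 at E12.5 (0.534 to 1.505) and 3.76 at E13.5 (1.76 to 9.18). Its E11.5 bound leaves out counting error, and the female interval (6.03 to 16.1 RPM) reached below the male limit of 8.18 RPM. The E13.5 interval excluded 1 for each member. In deposited values the E11.5 ratios were 2.75 for miR-132-3p and 2.76 for miR-212-5p, with females higher, and the E12.5 ratios were 0.898 and 1.04.

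A female excess at E13.5 was common in these SC libraries. Of the 473 microRNAs, 30.2% were at least 1.5-fold higher in SC female E13.5 than in SC male E13.5, including both members past the filter. In deposited values 26% were; miR-132-3p, at 1.38-fold, was not among them and miR-212-5p, at 3.06-fold, was. On the log2(RPM + 10) scale, 27.9% of microRNAs had a lower male minus female difference than miR-132-3p (-0.63) and 8.67% a lower one than miR-212-5p (-1.39). Each sex is 1 library, so sex and library cannot be told apart here.

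In PGCs the female level of miR-132-3p was 0.831-fold the male level at E11.5 (0.542 to 1.30), 1.05-fold at E12.5 (0.551 to 2.01) and 0.953-fold at E13.5 (0.508 to 1.79). Every interval included 1, and in deposited values the ratios were 2.02, 0.756 and 1.03. For miR-212-5p the female level was at least 1.56-fold that of males at E11.5 and at least 1.46-fold at E13.5, each against 5 reads in the male library. Counting error is left out of these bounds. The female interval at E11.5 (11.3 to 27.3 RPM) reached below the male limit of 11.6 RPM. At E13.5 (8.03 to 36.6 RPM) it reached below 12.7 RPM, so no sex difference is shown.

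The arms of each hairpin held similar proportions in the libraries that list both. The 3p arm made up 24.1% of miR-212 reads in PGC female E11.5 (10.3 to 43.5%). In SC female E11.5 it had 18 reads against 54 of the 5p arm (15.5 to 36.6%), and in SC female E12.5, male E12.5, female E13.5 and male E13.5 it made up 29.9, 31.1, 31.0 and 29.6%. These 6 libraries are the ones with both arms listed, and all their intervals overlapped. A library with an arm at 0 gives no share, so the likeness holds only where both arms were detected. SC male E11.5, with 21 reads of miR-212-5p and under 5 of miR-212-3p, is left out. In miR-132 the 3p arm made up 93.8 to 97.1% in the 4 libraries with both arms listed. SC female E12.5, with 222 reads of miR-132-3p and under 5 of miR-132-5p, is not among them. The hairpins thus had opposite major arms, the 5p arm in miR-212 and the 3p arm in miR-132.

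Both kinds of arm use were common. Of 196 hairpins with both arms listed, 53.1% had the higher mean RPM on the 5p arm, and the median ratio of the major to the minor arm was 12.7. By mean RPM the ratio was 2.93 in miR-212, with 24.0% of hairpins at or under it, and 61.0 in miR-132, with 73.5% at or under it.

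Among the libraries that list both miR-212-5p and miR-132-3p, the balance between the hairpins was lowest in SC male E13.5. miR-212-5p as a share of its reads plus those of miR-132-3p was 22.7 and 25.8% in the PGC libraries that list both. It was 30.5 and 30.4% in SC at E11.5 (female, male), and 25.3 and 22.5% at E12.5. At E13.5 it was 23.0% in females and 11.9% in males. The SC male E13.5 share (7.30 to 17.9%) had an interval below those of every other SC library. The 4 PGC libraries with miR-212-5p at 0 give no share. They held 32 (male E11.5), 21 (female E12.5), 22 (male E12.5) and 22 (male E13.5) reads of miR-132-3p, so their shares could be as low or lower. Among reads of the shared-seed 3p arms, miR-212-3p made up 5.37% in SC male E13.5 (2.35 to 10.3%). It made up 8.54 to 12.8% in the other 5 libraries that list both, so most reads with this seed were counted for miR-132-3p.

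**Figure D4:**
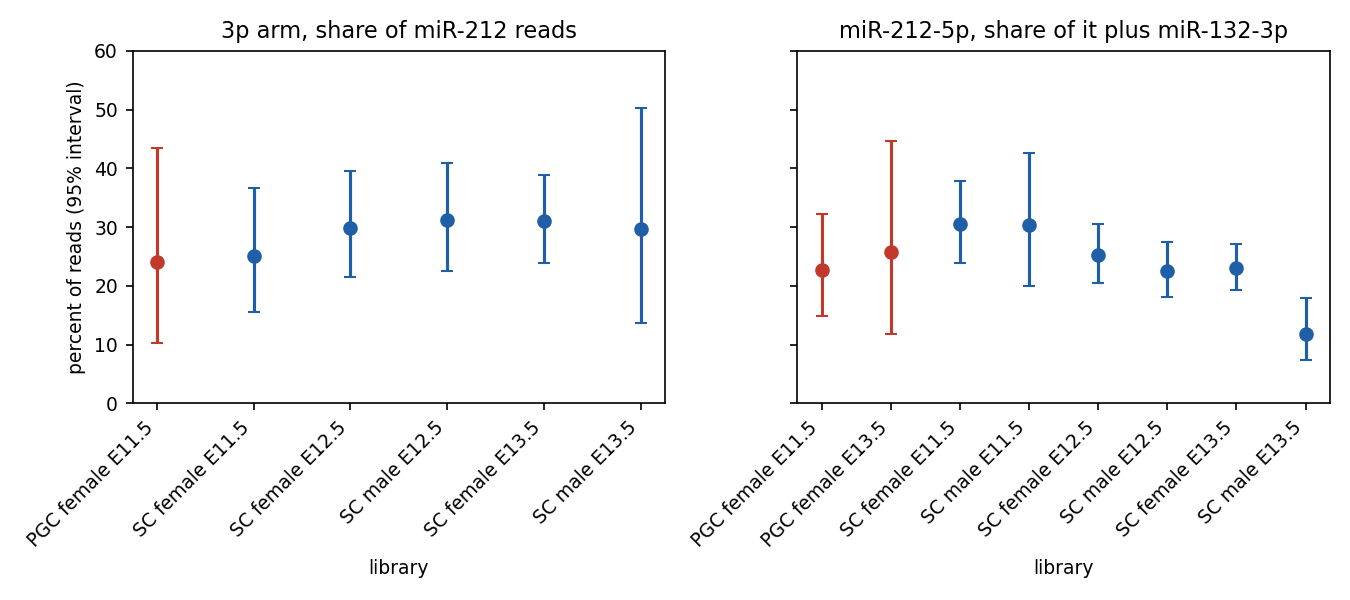
Percent of reads with exact 95% counting intervals, PGC libraries in red and SC libraries in blue: the 3p share of miR-212 reads (left) and the share of miR-212-5p in its sum with miR-132-3p (right), in libraries that list both. The left shares lie between 24.1 and 31.1%, and on the right SC male E13.5 is lowest at 11.9%.

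Across libraries the members varied together to different degrees. Over the 12 libraries Pearson's r on the log2(RPM + 10) scale was 0.81 between the miR-212 arms, 0.70 between miR-132-3p and miR-212-3p, and 0.43 between miR-132-3p and miR-212-5p. Within the 6 SC libraries the values were 0.70, 0.80 and 0.59. These points share library depth and the many zeros of the miR-212 arms, and within PGCs the arms were listed together in too few libraries to compare.

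The microRNAs whose levels were most like those of miR-132-3p over the 12 libraries were miR-125b-5p (r = 0.82), let-7d-5p (0.79), let-7c-5p (0.78), miR-10b-5p (0.78) and let-7a-5p (0.72). miR-212-3p ranked 6 and miR-212-5p ranked 44, and the median r over all microRNAs was -0.03. In the other direction miR-132-3p ranked 23 for miR-212-3p and 201 for miR-212-5p, whose median r was 0.33. miR-125b-5p ran from 4122 to 20755 RPM in PGCs and from 8364 to 25218 RPM in SC, so its ranges overlapped as well. For miR-212-3p the closest were miR-1264-3p (r = 0.87, itself at 0 in 6 libraries), miR-322-3p (0.83), miR-199b-3p, miR-199a-3p and miR-10b-5p (each 0.82). miR-212-5p ranked 6 for it, and the median r was 0.22. With deposited values, where library totals move all values, the median r with miR-132-3p was 0.81.

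The nearest other microRNA hairpin of the lists is Mir22, 289968 bases away on the same chromosome. miR-22-3p, its major arm, stood at 2534 ± 578 RPM in the PGC libraries and 4246 ± 1947 RPM in the SC libraries (SD, n = 6 each), lower in PGCs in 6 of 6 pairs. By limma with Benjamini-Hochberg adjustment its log2 difference of -0.69 had an adjusted p of 0.0745, and miR-22-5p, at -0.83, had 0.138. Neither passed 0.05 in RPM (1 of 2 at an unadjusted p under 0.05 by limma, and 0 of 2 adjusted by voom), and both were lower on the deposited scale. With 1 library per combination, such a p-value reflects the spread among these libraries and nothing beyond it. Between E11.5 and E13.5 neither arm passed in PGCs or in SC by limma or voom, with 0 of 2 and 1 of 2 at an unadjusted p under 0.05 by either.

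A list of 15 other microRNAs, reported to respond to gonadotropin or cyclic AMP signalling in ovarian or adrenal cells, gave the setting of the pathway that is known for the pair. Of 14 past the filter, 5 were higher and 4 lower in PGCs than in SC by limma at an adjusted p under 0.05; of all 473, 17.1% were higher and 25.8% lower. The median log2 difference of the list was -0.14 against -0.47 for all. The higher ones were miR-182-5p (3.66, adjusted p 0.000167 by limma), miR-183-5p and miR-96-5p, which come from 1 cluster, with miR-29a-3p and miR-23b-3p. The lower ones were miR-335-5p, miR-214-3p, miR-503-5p and miR-138-5p, of which miR-214-3p is also in the gonadal somatic list. On the deposited scale 2 were higher and 10 lower (8.25% and 77.2% of all 473), and without both E12.5 PGC libraries 2 were higher and 0 lower in RPM, where 23 and 1 of all 473 passed.

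The most abundant microRNAs of that list were on no common course. miR-26a-5p stood at 37167 ± 7335 RPM in PGCs and 38374 ± 8498 RPM in SC, and miR-21a-5p at 22527 ± 10782 and 26836 ± 9808 RPM (SD, n = 6 each). miR-182-5p stood at 26191 ± 15391 and 1748 ± 679 RPM, and miR-183-5p at 14290 ± 8069 and 1032 ± 373 RPM. The first 2 did not pass in RPM (adjusted p 0.908 and 0.355 by limma), and the last 2, like none of the members, were higher in PGCs.

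From E11.5 to E13.5 in PGCs, 5 of the 14 were higher and 4 lower by limma (9.51% and 23.9% of all 473). Without PGC female E11.5, the library that stood apart, 0 were higher and 2 lower, where 27 and 73 of all 473 passed, and on the deposited scale 0 and 4 (8.46% and 26.6% of all 473). In SC none of the 14 passed by limma (6.13% of all 473 were higher and 3.59% lower), with 4 at an unadjusted p under 0.05 and 1 higher by voom. None of the 14 passed on the deposited scale (9.09% and 3.17% of all 473).

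Neurons are a known site of high miR-132, so 7 neural microRNAs were summed. Their sum was 2304 to 5965 RPM in PGCs and 999.2 to 4216 RPM in SC. In every library but SC female E11.5, 3 or 4 of the 7 were at 0, the neuronal miR-124-3p among them. The sum rests on the others, of which miR-9-5p had a mean of 1454 RPM. Of 3 past the filter, 2 were higher and 0 lower in PGCs by limma in RPM (17.1% and 25.8% of all 473). On the deposited scale 0 were higher and 1 lower (8.25% and 77.2%). Endothelial microRNAs (miR-126a arms) summed to 4670 to 51442 RPM in PGCs and 16088 to 37105 RPM in SC, and the part of either list in the levels of the members was not tested.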

How the data were processed

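Small RNA of 12 libraries was sequenced. Per the submitters' processing notes, the tools were FastQC, Trim Galore, Bowtie 1.1.2 (on GRCm38) and DESeq. Neither the counting step nor the annotation release is given in the sources used here. What the authors deposited is a signal, counts divided by 1 size factor per library. Every value was 0 or a whole multiple (tolerance 1e-06) of the library's smallest value divided by 5, so reads were taken back from them and scaled to RPM.

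In R 4.3.3, limma 3.58.1 (empirical Bayes with trend, Benjamini-Hochberg, threshold 0.05) was run on log2(RPM + 10) over the 473 microRNAs with a mean of at least 10 RPM, with the stage-by-sex pair as a block for cell type, and stage and sex terms within each cell type for stage. It served the background and the lists of other microRNAs only, and was tested on simulated data. Folds of members with reads in both libraries carry exact conditional binomial intervals, bounds carry none, and shares carry exact Clopper-Pearson intervals. Named microRNAs were the members, the 5 most alike by Pearson's r for miR-132-3p and for miR-212-3p, and up to 4 of each list by mean RPM, with those that passed. The members and lists were chosen with earlier results of these data known. Of the listed names, 526 matched a RefSeq mature sequence. Alternatives were the deposited scale, other pseudocounts, no filter, no block, voom, and leaving out libraries.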

Additional observations from a re-analysis of the deposited data

Results flagged for a closer look

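miR-132-3p moved in opposite directions in the cell types between E11.5 and E13.5 in both sexes. Its log2(RPM + 10) change was -0.17 in PGC females and -0.34 in PGC males, and 1.504 in SC females and 0.72 in SC males. The difference between cell types was not tested. The counting intervals of the PGC ratios included 1, and those of the SC ratios excluded it. The female PGC change starts from PGC female E11.5, the library with a low germ cell level, whose part in it was not tested.

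miR-212-3p was listed in 1 of 6 PGC libraries, female E11.5 at 5.73 RPM, with the other 5 at 0. The limits of those 5 libraries, 11.6 to 29.98 RPM, are above 5.73 RPM, so no gap between them and female E11.5 is shown.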

How the results depend on the processing

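With 1 library per combination, no value separates a condition from its library, and PGC levels of the miR-212 arms are limited by depth. The planned edgeR test was not run, and mean stage and sex changes of the miR-212 arms in PGCs were not carried through the alternatives because most libraries are at 0. Of the alternatives that left out no single library, 36 values kept their direction and stayed within 1 SD of the main value (counts within 1.5 times), 15 moved and 1 reversed. An SD over 2 or 3 differences is wide. The cause of each shift was not tested.

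On the deposited scale the mean log2 difference, PGC minus SC, was -2.91 for miR-132-3p, -3.55 for miR-212-3p and -4.60 for miR-212-5p, against -0.67, -1.09 and -1.80 in RPM. For miR-132-3p the PGC stage change was -0.89 (-0.26 in RPM), and the male minus female difference was -0.21 in PGCs, reversed from 0.07, and -0.58 in SC (-0.07 in RPM). For miR-212-3p in SC the stage change was 2.37 (0.89 in RPM) and the sex difference -2.04 (-0.68 in RPM). With a pseudocount of 1 RPM, miR-212-3p gave -2.98 between cell types, 2.27 between stages and -1.70 between sexes in SC, and miR-212-5p -3.89 between cell types; with 30 RPM the stage change of miR-212-3p was 0.44. The limma calls between PGC and SC numbered 203 (81 higher, 122 lower), 404 on the deposited scale (39 higher, 365 lower), 83 without the pair block (47 higher, 36 lower) and 24 without both E12.5 PGC libraries (23 higher, 1 lower). voom was added after the data were seen.

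Leaving out each library in turn, the calls numbered 113 to 242 between cell types, 100 to 159 (158 with all) between stages in PGCs and 5 to 57 (46 with all) in SC. Between cell types they numbered 113 to 135 without any 1 of SC female E13.5, either male E13.5 library or an E12.5 library, where at least 1.5 times fewer passed. In PGCs the lowest count was without PGC female E11.5. In SC 25 passed without SC female E11.5, 26 without either E12.5 SC library, 8 without SC male E13.5 and 5 without SC male E11.5. For miR-132-3p the difference between cell types ran from -0.78 to -0.43, the stage change from -0.34 to -0.17 in PGCs and 0.72 to 1.504 in SC, and the sex difference from -0.0058 to 0.15 in PGCs and -0.24 to 0.21 in SC. For miR-212-3p the ranges were -1.31 to -0.92 between cell types, 0.82 to 0.95 between stages and -1.07 to -0.45 between sexes in SC. For miR-212-5p they were -2.05 to -1.63, -0.65 to 0.88 and -0.67 to 0.10; without either E13.5 SC library the female excess of miR-132-3p and miR-212-5p in SC is lost.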
